A study of Mus musculus with 2 samples.

Results

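Integrins are the receptors by which adherent cells hold on to the proteins around them. Each receptor is a pair of 1 alpha and 1 beta chain that spans the membrane, binds a matrix protein outside the cell and is coupled to actin or keratin filaments inside it. The alpha chain largely sets the ligand: alpha3 and alpha6 bind laminins of the basement membrane, alpha1 and alpha2 bind collagens, and alpha5 and alphav bind fibronectin and other proteins with an RGD motif. In stratified and pseudostratified epithelia, such as the airway surface where lung SCC arises, alpha6beta4 anchors basal cells to the basement membrane through hemidesmosomes. The 10 genes described here, Itga1, Itga2, Itga3, Itga5, Itga6, Itgav, Itgb1, Itgb3, Itgb4 and Itgb6, encode 6 alpha chains and 4 beta chains of such receptors. They were taken by symbol from the deposited comparison, with no value as a criterion, and all 10 were found among its 20679 genes. They were read by 28 of the 45101 probe sets of the array, none of which names a second gene as well.

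The comparison was between a pair of cultured mouse lung SCC lines, S1 and S2, with 1 sample of total RNA each on Affymetrix Mouse Genome 430 2.0 arrays. Both lines were sorted by flow cytometry from a single lung SCC line of KA/KA mice, which carry a kinase-dead Ikkα knock-in on the FVB background, so that mutation is common to both. Both were grown in the same serum-containing medium and neither was treated. S1, labelled high in Sca1 and tumorigenic, is read here as KALLU+ (Sca1 high, CD24-), and S2, labelled low in Sca1 and less tumorigenic, as KALLU- (Sca1 low, CD24+). Each is 1 line from 1 sort, and the age of the mice was not given in the sources used here.

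The deposited value is the authors' signed linear fold change of S1 over S2 for each probe set, with a minus sign where S1 is lower. It is a difference between the lines, not a level: no signal, detection call or p-value comes with it, so whether a subunit was expressed at all in either line is unknown. With 1 sample per line no test was possible, and 2-fold is used below only as a size. The scatter was gauged on 79 probe sets for olfactory or vomeronasal receptors, whose log2 fold changes ran from -0.55 to 0.38. Probe sets of a single gene had a pooled SD of 0.49 on the log2 scale. Neither measures variation between cultures, and whether that olfactory and vomeronasal range holds for well-expressed genes is unknown. Of the sorting markers, Cd24a was lower in S1 at all 3 of its probe sets (median log2 fold change -5.73), as its label says. But Ly6a, which encodes Sca1, was also lower at its 1 probe set (-2.57), against its label. Every direction below is therefore that of the line labelled S1 over the line labelled S2. Bacterial RNAs added before labelling read lower in S1, with a median log2 fold change of -0.45. Centring on these poly-A controls adds the size of that shift to every gene, and the members' values and the medians of related lists are given both ways. The median of all genes was -0.04 as deposited and 0.40 after that centring.

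Of the 10 integrin genes, Itga6 was the only one past 2-fold on the higher side in the line labelled S1, by the median of its probe sets, and Itgb3 the only one past 2-fold on the lower side. The other 8 lay between. Since RNA was read from whole cultures, fewer cells with a transcript and less of it per cell cannot be told apart. Of all genes, 4.69% were past 2-fold higher and 5.08% past 2-fold lower, so 1 of 10 in each direction is close to the background. These were 969 and 1051 genes, and 2052 and 583 after centring on the poly-A controls. At 1.5-fold the counts were 1 higher and 3 lower (Itga1, Itga5 and Itgb3), where 9.27% of all genes were higher and 11.4% lower. The median over the 10 genes was -0.14 on the log2 scale, with 5 genes above 0 and 5 below. Of all 20679 genes, 8980 were above 0 and 11627 below. After centring on the poly-A controls the median of the 10 became 0.31, with 7 of them above 0, where 17463 of all genes were. Itga6 was then the only member past 2-fold. By probe set, 13 of the 28 were higher and 15 lower. Of these, 2 were at least 2-fold higher, both of Itga6, against 6.73% of all probe sets. A further 3 were at least 2-fold lower, 1 each of Itga1, Itgav and Itgb3, against 4.72%. The range of the olfactory and vomeronasal probe sets held 16 of the 28 probe sets and the medians of 6 of the 10 genes. The share of all probe sets or genes inside that range was not counted, so these counts have no background beside them.

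**Figure D1:**
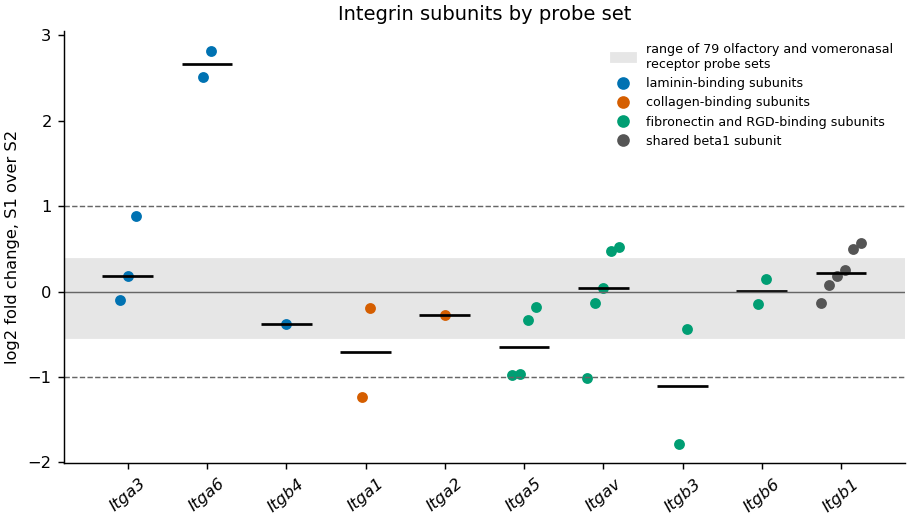
Log2 fold change of S1 over S2 (vertical axis) at each probe set of the 10 integrin genes, coloured by the ligand of the subunit; bars are medians over probe sets, dashed lines mark 2-fold and the grey band is the range of the olfactory and vomeronasal receptor probe sets. The pair of Itga6 probe sets stands alone above 2.5, while 1 probe set each of Itga1, Itgav and Itgb3 lies below -1.

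Among the laminin-binding members, Itga6, the alpha chain that pairs with beta1 or beta4, stood apart. Its probe sets, 1422444_at and 1422445_at, had fold changes of 5.72 and 7.05 in the authors' table, which placed them at ranks 273 and 173 from the highest of the 45101. Both were well above 2-fold, and they differed from each other by only 0.30 on the log2 scale. The median log2 fold change of Itga6 was 2.67, a 6.35-fold difference, which put the gene at rank 71 from the highest of 20679, or percentile 99.7. Centred on the poly-A controls it was 3.11. It was also the only member with every probe set past 2-fold the same way; 2.99% of all genes had every probe set at least 2-fold higher and 3.92% every probe set at least 2-fold lower. Itga6 is 1 of the genes that the study names for these arrays, so its size here is no independent evidence of its direction.

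The other laminin-binding subunits among the members, Itga3 and Itgb4, were under 2-fold, at percentiles 76.2 and 18.6 of all genes. Itga3, the alpha chain of alpha3beta1, had fold changes of -1.07, 1.13 and 1.84 at its 3 probe sets. These did not share a sign, and their median log2 fold change was 0.18. Itgb4, the beta chain of the hemidesmosome, whose only partner is alpha6, had a fold change of -1.30 at its 1 probe set, a log2 value of -0.38. The log2 fold change of Itga6 exceeded that of Itgb4 by 3.04 and that of Itgb1 by 2.45. Itgb4 turned to 0.07 when centred on the poly-A controls, and its single probe set carries a suffix for shared transcripts, so it has no value without such probe sets.

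Itgb1, the beta chain that alpha1, alpha2, alpha3, alpha5, alpha6 and alphav can all use, had the most probe sets, 6. Their fold changes ran from -1.10 to 1.48, with 5 above 1 and 1 below -1. None reached 1.5-fold, and the median log2 fold change was 0.22 with an SD of 0.26 over the probe sets. Of the 4 members with more than 2 probe sets it had the smallest range, 0.70.

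Itga1 and Itga2, the collagen-binding alpha chains among the members, both had lower values in the line labelled S1. Itga1, the alpha chain of a receptor for collagen IV in particular, had fold changes of -2.35 and -1.14 at its pair of probe sets. One lay past 2-fold and the other inside the receptor range, which left a median of -0.71 on the log2 scale (percentile 8.72 of all genes). Itga2, whose receptor binds fibrillar collagen I, had a fold change of -1.21 at its 1 probe set, a log2 value of -0.27, inside that range. On the poly-A controls the values were -0.27 for Itga1 and 0.17 for Itga2, so that Itga2 turned sign.

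Itga5, which pairs only with beta1 to form the main fibronectin receptor, was lower at all 4 of its probe sets, with fold changes of -1.97, -1.95, -1.26 and -1.13. The 4 probe sets shared a sign, though none reached 2-fold and they formed 2 larger and 2 smaller values. The median was -0.64 on the log2 scale (percentile 10.0), and -0.20 when centred on the poly-A controls. The medians of Itga5 and Itga1 were nearly the same and differed by less than the spread between the probe sets of either gene.

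RefSeq promoter sequence for GRCm38.p6 was found for 7 of the members (Itga1, Itga2, Itga3, Itga5, Itgav, Itgb1 and Itgb6) and not for Itga6, Itgb3 and Itgb4. The 250 bases before the start are printed for Itga5 and Itga1, the members with the lowest medians of those 7, and for Itgb1, the chain they share. Capitals mark the GC box, GGGCGG on either strand, at which Sp1-family factors can bind. The Itga5 stretch is chr15:103366792-103367041 on the minus strand, that of Itga1 is chr13:115101965-115102214 on the minus strand, and that of Itgb1 is chr8:128685404-128685653 on the plus strand.

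Itga5: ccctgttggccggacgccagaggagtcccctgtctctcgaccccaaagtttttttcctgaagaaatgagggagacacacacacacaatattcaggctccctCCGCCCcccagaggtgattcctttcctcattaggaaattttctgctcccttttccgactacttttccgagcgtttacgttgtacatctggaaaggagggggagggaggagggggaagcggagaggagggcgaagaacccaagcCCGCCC

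Itga1: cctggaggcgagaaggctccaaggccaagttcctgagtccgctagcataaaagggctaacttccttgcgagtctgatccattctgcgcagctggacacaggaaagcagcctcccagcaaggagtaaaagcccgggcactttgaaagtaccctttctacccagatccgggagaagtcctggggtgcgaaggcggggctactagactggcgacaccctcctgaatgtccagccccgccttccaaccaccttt

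Itgb1: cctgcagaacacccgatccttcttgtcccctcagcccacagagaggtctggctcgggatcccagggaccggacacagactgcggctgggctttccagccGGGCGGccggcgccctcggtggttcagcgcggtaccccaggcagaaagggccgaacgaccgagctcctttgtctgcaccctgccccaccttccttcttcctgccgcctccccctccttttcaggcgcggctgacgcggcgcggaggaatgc

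The GC box was matched 2 times before Itga5, at 149 and 6 bases from the start, 1 time before Itgb1, at 151 bases, and not before Itga1. It was also found at both starts of Itga3. In all, 4 of the 9 member promoters held it (Itga3 and Itgb6 have 2 starts each), whereas 32.7% of all 32851 promoters of this length did. The AP-1 motif TGANTCA was found in 0 of the 9 and in 6.75% of all promoters, and the NF-kB motif in 0 of the 9 and in 7.25%. The E-box CANNTG, the motif of Twist1 and its relatives, was found in 6 of the 9, against 66.2% of all. These are matches of letters and not binding sites, and they are drawn from the reference mouse strain and not from these lines.

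Itgav, the alpha chain shared by receptors for vitronectin, fibronectin and latent TGF-beta, gave no single direction. Its 5 probe sets had fold changes of -2.02, -1.09, 1.03, 1.39 and 1.43. They ranged over 1.53 on the log2 scale, the widest spread among the members, around a median of 0.04; 1 probe set was past 2-fold lower and the others were all under 1.5-fold in size. Which transcripts each probe set reads was not analysed here. Of the beta chains that pair with alphav, Itgb3, also known as the platelet beta chain, had fold changes of -3.43 and -1.35. Both values were lower in the line labelled S1, but they differed by 1.35 on the log2 scale. The median log2 fold change of Itgb3 was -1.11, a 2.15-fold difference at percentile 4.32, and -0.66, or 1.58-fold, when centred on the poly-A controls. Itgb6, an epithelial beta chain whose receptor activates latent TGF-beta, had fold changes of -1.10 and 1.11 and a log2 median of 0.00. Both of its probe sets lay inside the receptor range.

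Ordered by median log2 fold change, the members ran from Itgb3 (-1.11), Itga1 (-0.71), Itga5 (-0.64), Itgb4 (-0.38) and Itga2 (-0.27) through Itgb6 (0.00), Itgav (0.04), Itga3 (0.18) and Itgb1 (0.22) to Itga6 (2.67). Itga6 and the next member, Itgb1, were 2.45 apart, against the pooled SD of 0.49 between probe sets of a gene. That SD describes probe sets within 1 comparison and does not measure variation between cultures. No other neighbours in this order differed by as much as that SD. On the poly-A controls, which leave the order as it is, Itgb6 was at 0.45, Itgav at 0.48, Itga3 at 0.62 and Itgb1 at 0.67. The spread between the probe sets of the members, with a pooled SD of 0.50, was like that of all genes.

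Set side by side as receptors, the alpha and beta chains often had different values. In alpha3beta1 they were 0.18 and 0.22 on the log2 scale, and in alphavbeta6 0.04 and 0.00, each within 0.05. In alpha1beta1, alpha2beta1 and alpha5beta1 the alpha chain was below the beta chain, with differences of -0.93, -0.49 and -0.87. In alphavbeta3 the beta chain was the lower by 1.14. These differences do not change with centring, which adds the same amount to both chains. How they depend on the normalization of the arrays, which was not given, is unknown. A pair of fold changes does not give the amount of the receptor, which also depends on the level of each chain.

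**Figure D2:**
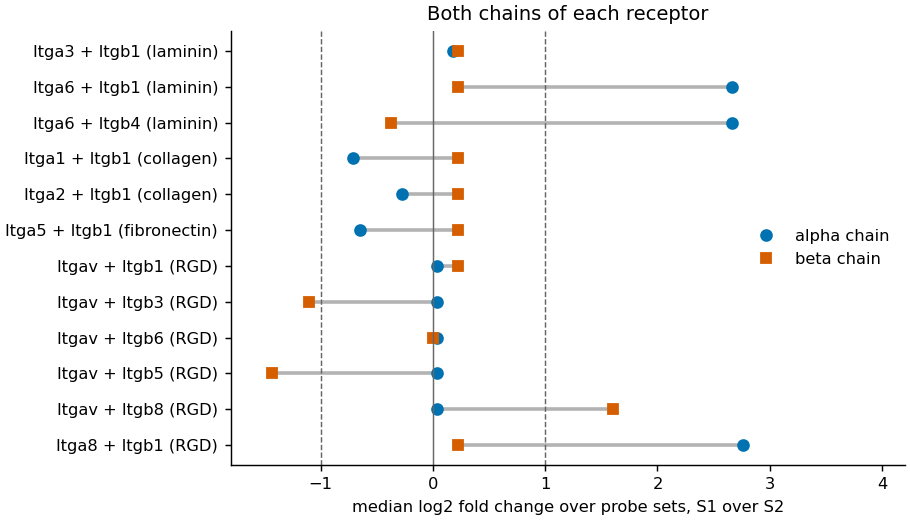
Median log2 fold change of S1 over S2 (horizontal axis) for the alpha chain (circle) and beta chain (square) of 12 integrin receptors, with the ligand class in parentheses and dashed lines at 2-fold. The alpha6 receptors show the widest separation among the members, with Itga6 at 2.67 against 0.22 for Itgb1 and -0.38 for Itgb4.

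The other chains of the integrin family were read from a list of 16 genes, of which 14 are named in the table. Of these, 2 were past 2-fold higher and 2 past 2-fold lower, and their median was -0.08 (0.37 on the poly-A controls). Itga8, an alpha chain that pairs with beta1 to bind RGD ligands such as nephronectin, was higher at both probe sets, with a median log2 fold change of 2.76, close to that of Itga6. Itgb8, a further partner of alphav and a receptor for latent TGF-beta, was higher at its 1 probe set (1.60). Itgb5, the beta chain of a vitronectin receptor with alphav, was lower at all 4 of its probe sets, with a median of -1.43. The chains that pair with alphav thus spanned from -1.43 for Itgb5 through -1.11 for Itgb3 and 0.00 for Itgb6 to 1.60 for Itgb8, around 0.04 for Itgav itself. Itgb2, the beta chain of leukocyte integrins, was also lower (-1.29). After centring on the poly-A controls, Itgb5 (-0.98) and Itgb2 (-0.84) no longer passed 2-fold. Of the 14 genes, 4 were then past 2-fold higher and 0 lower, beside 2052 and 583 of all 20679 genes. Itga7 and Itga10, alpha chains with 1 probe set each, were among the 4, at 1.33 and 1.35 (0.89 and 0.90 as deposited).

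The partners of the receptors were read from lists of hemidesmosome and tetraspanin genes and of proteins that bind the tails inside the cell. In the first list, 1 of the 7 genes named in the table was at least 2-fold higher and 1 lower. Cd9, a tetraspanin that associates with alpha3beta1 and alpha6beta1, was just past 2-fold higher at its only probe set (1.03). Cd82, a further tetraspanin, was lower by its median of -1.05, although its pair of probe sets lay at -1.99 and -0.10; it is named because the count is small, and its median was -0.60 on the poly-A controls. Cd151, the tetraspanin bound most closely to alpha3 and alpha6, had a median of -0.67, with 5 of 6 probe sets lower. The list's median was -0.41, and 0.03 with the poly-A controls set to 0.

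Of the 24 tail-binding adaptors, activators and kinases named in the table, 1 was at least 2-fold higher, 2 were at least 2-fold lower and 21 were between. Parvb, an adaptor that binds integrin-linked kinase, was lower at both probe sets, with a median log2 fold change of -2.53 and a span from -3.98 to -1.07. Tns1, an adaptor that links beta tails to actin, was lower at all 3 probe sets, at a median of -1.19 as deposited and -0.74 on the poly-A controls. Rap1b, a small GTPase that switches integrins on, was higher by its median (1.01), with 1 of 3 probe sets just under 2-fold, and is named because the count is small. Ptk2, the focal adhesion kinase, was at 0.37. The list's median was 0.08 on the log2 scale, with 14 genes above 0 and 10 below. On the poly-A controls it was 0.53, with 21 above and 3 below, where 17463 of all 20679 genes were above 0 and 3216 below.

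Of the matrix ligands, by medians over probe sets, laminin chains lay mostly near 0 and collagen chains on the lower side. Some probe sets departed from these medians. Lamb1 (median 0.26) had 1 of 4 past 2-fold higher, at 1.69. Col1a2 (median -0.11) had 1 of 3 past 2-fold higher, at 1.21, and Col4a1 1 of 2 higher, at 0.19. Lamb2 was just under 2-fold lower at its 1 probe set (-0.99). Of 11 laminin chains, 0 were at least 2-fold higher and 1 was lower: Lama4, a chain of laminins of vessels and mesenchyme, at -2.44 with both probe sets past 2-fold. Lama3 and Lamb3, chains of epithelial laminin, the ligand of alpha6beta4 and alpha3beta1, lay near 0, with log2 medians of 0.08 and -0.18. The median of the laminin list was -0.06, and 0.39 on the poly-A controls, where 1 chain was past 2-fold higher (Lama1, 1.21). All 10 collagen chains had medians below 0, as did 11627 of all 20679 genes. After centring on the poly-A controls 6 of 10 were below 0, as were 3216 of all genes. The list median was -0.67 (-0.22 on those controls). Of the 10 chains, 2 were at least 2-fold lower, Col6a3 (-2.67) and Col3a1 (-2.23), and 0 were higher.

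Fibronectin itself, Fn1, was lower in the line labelled S1 at both probe sets, at -1.06 and -0.77 on the log2 scale with a median of -0.92, and its median was -0.47 after centring on the poly-A controls. Those of Itga5, its receptor chain, were -0.64 and -0.20. Of the 11 ligands of the RGD-binding and alphav receptors, 1 was at least 2-fold higher and 2 were lower, with a list median of -0.02 (0.42 on the poly-A controls). Cyr61, a secreted matrix protein that binds alphavbeta3, was higher at all 4 probe sets with a median of 2.43. Tnc, tenascin C, was lower at both, with a median of -3.17 and its probe sets at -4.91 and -1.44. Fbn1, fibrillin 1, was lower by its median of -1.46, although its 4 probe sets ran from -2.59 to -0.02, and is named because the count is small. Over the 77 genes of these 6 lists together, 5 were past 2-fold higher and 10 past 2-fold lower, and the median was -0.09, beside the 4.69% and 5.08% of all genes. After centring on the poly-A controls the split of these lists turned to 12 higher and 6 lower, beside 2052 and 583 of all 20679 genes.

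**Figure D3:**
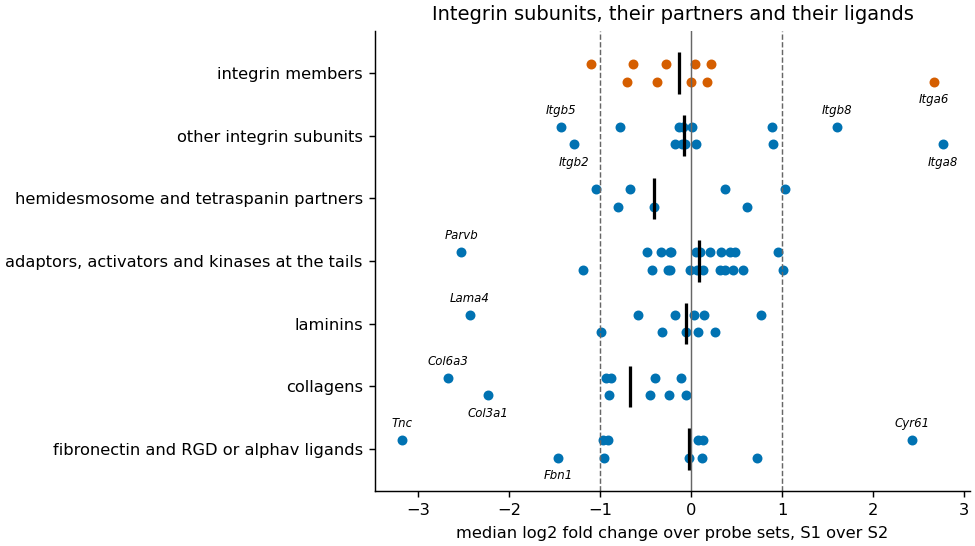
Median log2 fold change of S1 over S2 (horizontal axis) of each gene in the integrin members and the 6 lists of related genes; each point is a gene, black bars are list medians, dashed lines mark 2-fold, and genes beyond 1.2 in size are named. Most genes lie between the dashed lines, and the collagen points all lie below 0 as deposited (6 of 10 after centring on the poly-A controls).

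Marker genes of the cell types such cultures could hold were read beside these values. Of 8 basal squamous markers, 0 were at least 2-fold higher and 1 was lower (Perp, -1.17), with a list median of -0.04 and Krt5 at -0.07. On the poly-A controls Perp was at -0.72, the list median was 0.41 and 1 marker was past 2-fold higher (Jup, 1.12). Of 8 mesenchymal markers, 1 was higher (Twist1, 1.14) and 2 lower (Cdh11, -5.44, and Snai1, -1.90), beside 4.69% and 5.08% of all genes. On the poly-A controls 2 were higher (Twist1 and Cdh2, 1.25) and the same 2 lower. The list median was 0.11, with 6 markers above 0 and 2 below. It was 0.56 on the poly-A controls, again with 6 above 0 and 2 below. Of 7 fibroblast markers, 0 were higher and 2 lower (Fap, -3.00, and Pdgfrb, -1.16), with a list median of -0.46. Dcn (0.42) and Thy1 (0.17) were above 0. On the poly-A controls Pdgfrb was at -0.71, which left 1 past 2-fold lower, and the list median was -0.02, with 3 markers above 0 and 4 below. Of 5 endothelial and 7 leukocyte markers, 0 were past 2-fold either way. The part of these markers in the values of the collagen chains, Itga1 and Itga5 was not tested. Since the table holds no levels, whether the defining markers of lung SCC were present in either line could not be checked.

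The genes beside each member on its chromosome were read as well, taking the 5 nearest measured genes on each side in the gene order of RefSeq for GRCm38.p6. Of the 10 genes around Itga6 on chromosome 2, from Metap1d to 6430710C18Rik, 0 were at least 2-fold higher and 1 was lower (Dlx2, -1.34), and their median was -0.11 against 2.67 for Itga6. The nearest measured gene on its far side, Pdk1, was at 0.36. Around Itgb3 on chromosome 11, 0 of 10 genes were past 2-fold and the median was -0.08. Itga1 and Itga2 lie next to each other on chromosome 13, and their surroundings had the lowest medians among the members, at -0.56 for each; of the 10 genes around Itga1, 3 were at least 2-fold lower (Pelo, -1.33, Isl1, -1.13, and Emb, -5.35) and 0 higher. Both members share most of these neighbours, so they are not separate observations. Itgb1 lies at the end of the measured part of chromosome 8 and has neighbours on 1 side alone. Over the 95 places beside the 10 members, some genes counted more than once, 3 (3.16%) were at least 2-fold higher and 10 (10.5%) lower, beside the 4.69% and 5.08% of all genes. On the poly-A controls the counts were 6 and 4, beside 2052 and 583 of all 20679 genes. Pelo and Isl1 then no longer passed 2-fold.

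**Figure D4:**
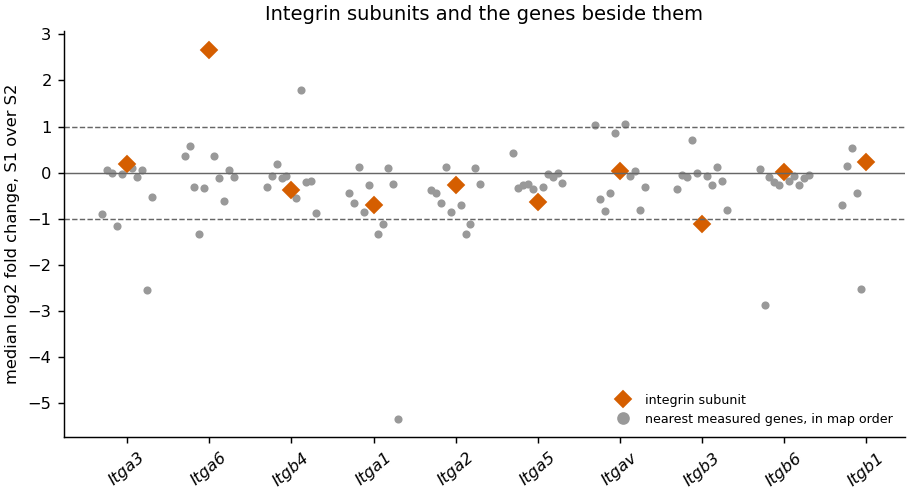
Median log2 fold change of S1 over S2 (vertical axis) of each integrin gene (diamond) and of the nearest measured genes on its chromosome (circles, in map order, up to 5 on each side); dashed lines mark 2-fold. Itga6 lies above all 10 genes around it, whereas Itga1 and Itga2 lie among neighbours with medians of -0.56.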

How the data were processed

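Total RNA of 2 cultured lines was hybridised to Affymetrix Mouse Genome 430 2.0 arrays, with 1 sample per line (S1, S2). Per the file headers, the deposited value is a fold change of S1 over S2 for each probe set, here held as a signed score. The paper names Partek Genomics Suite, and the submitters' processing notes name MAS5 without its role; background correction, normalization and the number of arrays were not given in the sources used here. A heatmap in the paper has several columns for each line, and it is not known if the fold changes are means over arrays. This column is the authors' own comparison and the only measurement in the table, and it was used because the group of genes is defined on it. No p-value and no interval can be given, and depth (signal over background) is unknown.

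Fold changes were converted to signed log2 values and summarised per gene by the median of its probe sets, leaving out 5797 of the 45101 that carry no symbol and 1280 that carry more than 1. The members and lists were chosen with earlier results of these data known. From each list were named genes with every probe set at least 2-fold the same way (at most 6), Fn1, Lama3, Lamb3, Cd151 and Ptk2; a further gene of the rule is not reported here. Other genes, such as Cd82, Rap1b and Fbn1, were named after their values were seen, where a count was small. Itga7, Itga10, Lamb1, Lamb2, Col1a2 and Col4a1 were also named after their values were seen. The olfactory and vomeronasal range, the neighbouring genes and the motifs were chosen after values had been seen. Alternatives were thresholds of 1.5-fold and 4-fold, the probe set with the largest change, probe sets without cross-hybridisation suffixes or with several gene names, probe sets in place of genes, and centring on all probe sets or on 24 poly-A control probe sets. Data were simulated on the real probe sets of this comparison (20679 genes), with less scatter between probe sets than the real pooled SD of 0.49. There, 200 of 200 genes changed 8-fold passed 2-fold in the right direction, and 8 genes simulated without a change also passed 2-fold. The count of 8 therefore does not carry over to the real scatter. Python 3.11.15, numpy 2.4.6, pandas 2.3.3 and matplotlib 3.10.9 were used.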

Additional observations from a re-analysis of the deposited data

How the results depend on the processing

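No paired analysis was possible because each line has 1 sample and only their fold change is given; for the same reason no replicate could be left out, and without signals no filter on dim probe sets was run. The count of members at least 2-fold higher was 1 under the alternatives by gene and 2 by probe sets, both of Itga6. The count at least 2-fold lower, 1 as deposited, was 3 at 1.5-fold, 0 at 4-fold, 3 by the probe set with the largest change, 3 by probe sets in place of genes and 0 after centring on the poly-A controls. Of the related lists together, 5 higher and 10 lower became 11 and 21 at 1.5-fold, 2 and 5 at 4-fold, 8 and 16 by the largest probe set, and 12 and 6 on the poly-A controls. Of all 20679 genes, 969 higher and 1051 lower became 1917 and 2348 at 1.5-fold and 185 and 331 at 4-fold. They were 1643 and 1564 by the largest probe set and 2052 and 583 on the poly-A controls. By probe sets, of 45101, the counts were 3034 and 2128. Thresholds and centring move counts by their construction. A single gene was said to have moved where its value shifted past 0.49, the pooled within-gene SD of probe sets. By the largest probe set 4 of the 10 members moved so, Itga1 to -1.23, Itga3 to 0.88, Itgb3 to -1.78 and Itgav to -1.01, which turned its sign. Without suffixed probe sets the sign of Itgb6 turned, to -0.14, and on the poly-A controls those of Itga2 and Itgb4. A gene with 1 probe set cannot move under the rules for probe sets, which says nothing of its stability.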
